A study of Homo sapiens with 12 samples.

Results

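The transcripts of 47 listed genes of the lysosome and of autophagy were followed in 3 human hepatocellular carcinoma (HCC) cell lines under inhibition of mTOR, of SHP2, or of both. The list is one of gene names, and every listed gene of the table was taken. This list and those of other pathway genes below were drawn up with earlier results of these data known. Their shares and medians beside those of all genes are therefore descriptions. Of the 47, 46 were in the table of 11548 genes, and MITF was not analysed here. They comprised 2 transcription factors of the lysosome (TFEB and TFE3), 17 hydrolases or lumenal helpers of hydrolases, 6 membrane proteins, 10 V-ATPase subunits and 11 autophagy genes.

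Hep3B, MHCC97H and Huh7 cells, all labelled wild type, were sequenced as 1 library per condition, 12 libraries in all. The conditions were untreated, AZD8055 at 100 nM (an inhibitor of the mTOR kinase), compound #57 (an inhibitor of the phosphatase SHP2), and the combination of 100 nM of AZD8055 with 5 µM of compound #57. MHCC97H cells were exposed for 24 h and the other cell lines for 48 h, so exposure time and this cell line cannot be told apart. The dose of compound #57 on its own, and whether untreated cells received a vehicle, were not given in the sources used here. Each library comes from a plate of cells, so a value says nothing about fewer cells of a kind as against less RNA per cell, which cannot be told apart in bulk RNA.

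The libraries held between 10659952 and 15957252 reads, of which the 11548 genes took 98.6% to 99.3%. All 14 hepatocyte markers listed were in the table. In MHCC97H, APOA1 reached a log2 value of at most 3.18 and TTR of at most 1.64. In Hep3B and Huh7 the lowest values were 10.5 and 8.72. HNF4A stood between 9.22 and 12.1 in all 12 libraries. Of 5 epithelial markers, KRT8 stood between 14.1 and 15.4, and KRT18 and KRT19 did not fall below 10.27. EPCAM reached at most 3.34 in MHCC97H, against at least 8.54 in Hep3B and Huh7. CDH1 reached at most 8.87 in MHCC97H, and its lowest value in the other lines was 9.26. Of 12 markers of immune, endothelial and stromal cells, 3 were in the table (COL1A1, COL1A2 and PECAM1). PECAM1 reached 9.08 in MHCC97H and COL1A2 9.99 in Huh7, and their part in the differences between lines was not tested. The other 9 were not analysed here. Unless reads are named, a level is a deposited log2 value, read here as log2(reads per 10000000 of the library + 1).

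The lysosome is an acidic compartment in which hydrolases break down proteins, lipids, glycans and nucleic acids. The V-ATPase pumps protons into it, membrane proteins line it and carry products out, and autophagosomes deliver cytoplasm to it. When mTORC1 is active at the lysosomal surface, it phosphorylates TFEB, TFE3 and MITF and holds them in the cytoplasm, and it phosphorylates ULK1 and ATG13 to restrain autophagy. When mTORC1 is inhibited, the factors enter the nucleus and bind E-box motifs near the starts of lysosomal and autophagy genes. SHP2 relays signals from receptor tyrosine kinases to RAS and ERK, and ERK has also been described to phosphorylate TFEB. RNA levels of the factors do not report their location, which was not measured here.

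The 46 members together took a small part of each library, and that part was larger under every drug in every cell line. In Hep3B, the 46 members held 0.6% of the reads in untreated cells (95% Wilson interval 0.595 to 0.604), 0.636% with AZD8055 (0.632 to 0.640), 0.711% with compound #57 (0.707 to 0.715) and 0.692% with the combination (0.687 to 0.696). In MHCC97H, the share was 0.837% (0.832 to 0.842), 1.05% (1.045 to 1.056), 0.917% (0.912 to 0.923) and 1.15% (1.146 to 1.158) in the same order of treatments. In Huh7, it was 0.488% (0.485 to 0.492), 0.515% (0.510 to 0.519), 0.556% (0.552 to 0.560) and 0.583% (0.579 to 0.588). The intervals cover counting error only, and the shares have no replicate within a cell line. Deeply read genes weigh most in them, such as PSAP (7876 to 24799 reads per library) and SQSTM1 (4129 to 32509). The V-ATPase subunits did not follow in every line. Their share in Huh7 was 0.0925% untreated and 0.0891%, 0.0899% and 0.0903% with the treatments in the same order. In Hep3B it was 0.0930%, 0.0837%, 0.0952% and 0.0880%, and in MHCC97H it was larger under every drug.

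Of the transcription factors, TFE3 was measured with many reads in every cell line and TFEB only in Hep3B. TFEB stood at 8.50, 8.78, 8.19 and 8.42 in Hep3B in the order untreated, AZD8055, compound #57 and combination, an order that is kept for every gene in the text. It stood at 5.38, 4.46, 3.41 and 4.46 in MHCC97H, from 53, 30, 11 and 26 reads, and at 4.11, 3.34, 4.39 and 3.88 in Huh7, from 26, 11, 27 and 16 reads. TFE3 stood at 8.67, 8.44, 8.80 and 8.72 in Hep3B, at 10.32, 10.21, 10.15 and 10.13 in MHCC97H, and at 9.77, 10.10, 10.29 and 10.35 in Huh7. Neither factor passed the test in any treatment comparison. The fitted log2 change with AZD8055 was -0.47 ± 0.41 (SE) for TFEB and -0.01 ± 0.15 for TFE3, and that with the combination -0.41 ± 0.41 and 0.14 ± 0.15. The direction of TFE3 turned without some cell lines: with AZD8055 it ran from -0.18 without Huh7 to 0.11 without Hep3B, and with the combination from -0.08 without Huh7 to 0.31 without MHCC97H.

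The core of the site that TFEB and TFE3 bind is the E-box CACGTG, which reads the same on both strands. The following stretches hold such a match near the start of members described below, and they are shown because they are the regulatory sequence that the listed factors are known for. RefSeq promoters (GRCh38.p14, from 250 bases before to 50 after the start) were found for 34 of the 46 members. The 6 letters CACGTG stood in 11 of the 34 (32.4%), against 10.5% of 8711 matched genes of the table and 7.43% of 27305 promoters in the reference. The 8 letters TCACGTGA, which contain the 6, stood in 5 of the 34 (14.7%), against 2.07% and 1.04%. The groups differed in this. CACGTG stood in 4 of 5 matched membrane proteins, 5 of 12 hydrolases and 1 of 5 V-ATPase subunits. It stood in 1 of 10 matched autophagy genes (10%), near the share of the table, and TCACGTGA in 0 of these 10. Capitals mark the match, and other matches within a stretch may be in lower case or run past its end. The stretches lie at chr20:45891283-45891342 on the plus strand (CTSA, match 26 bases before the start), chr11:1763943-1764000 on the minus strand (CTSD, 47), chr11:66568698-66568755 on the minus strand (CTSF, 123), chr16:1475044-1475101 on the minus strand (CLCN7, 47), chr14:55411820-55411877 on the minus strand (ATG14, 21), chr13:113297184-113297243 on the plus strand (LAMP1, 29), chr19:7522556-7522615 on the plus strand (MCOLN1, 42), chr17:80101478-80101537 on the plus strand (GAA, 77) and chr16:67481184-67481243 on the minus strand (ATP6V0D1, 60).
CTSA: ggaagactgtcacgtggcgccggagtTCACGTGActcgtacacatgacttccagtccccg
CTSD: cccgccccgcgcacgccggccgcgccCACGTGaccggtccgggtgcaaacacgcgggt
CTSF: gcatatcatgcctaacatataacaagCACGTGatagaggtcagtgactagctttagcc
CLCN7: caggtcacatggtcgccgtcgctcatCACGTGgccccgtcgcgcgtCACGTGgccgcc
ATG14: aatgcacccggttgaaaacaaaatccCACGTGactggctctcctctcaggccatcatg
LAMP1: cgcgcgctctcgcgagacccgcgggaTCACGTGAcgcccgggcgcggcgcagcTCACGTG
MCOLN1: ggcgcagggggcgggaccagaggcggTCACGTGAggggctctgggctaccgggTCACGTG
GAA: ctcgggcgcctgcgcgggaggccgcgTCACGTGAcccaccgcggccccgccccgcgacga
ATP6V0D1: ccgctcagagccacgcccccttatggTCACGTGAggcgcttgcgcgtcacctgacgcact
The promoters of NEU1 and CD63 also hold CACGTG, and their stretches are not shown. A match is a description of the letters, and no binding was measured.

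With AZD8055, ATG14 rose and GLA fell, and these were the only members that passed the test (limma on all 12 libraries, modelling treatment and cell line, with a Benjamini-Hochberg adjusted p under 0.05 over all genes). Each is 2.17% of the 46. Of all genes, 2.21% were called higher and 0.753% lower, so the members' share of higher calls was that of the background. ATG14 encodes the subunit that directs the class III PI3-kinase to autophagosome formation. It stood at 7.66, 8.21, 7.79 and 8.64 in Hep3B, at 7.27, 8.07, 7.65 and 8.53 in MHCC97H and at 8.29, 9.12, 8.39 and 9.46 in Huh7. Within each cell line, the untreated library was the lowest and the combination the highest. The fitted change of ATG14 with AZD8055 was 0.72 ± 0.12 on the log2 scale (adjusted p = 0.0315). Hep3B gave 0.54 (95% Clopper-Pearson interval of the reads 0.30 to 0.80), MHCC97H 0.80 (0.55 to 1.05) and Huh7 0.83 (0.66 to 1.0).

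GLA encodes alpha-galactosidase A, which removes terminal galactose from glycolipids. It stood at 8.38, 7.68, 8.06 and 7.33 in Hep3B, at 10.96, 10.29, 10.95 and 10.22 in MHCC97H and at 8.91, 8.02, 8.60 and 7.79 in Huh7. In every cell line both libraries with AZD8055 were below both without it. With AZD8055 the fitted change of GLA was -0.75 ± 0.12 (adjusted p = 0.0283). Hep3B gave -0.69 (-0.93 to -0.46), MHCC97H -0.67 (-0.76 to -0.59) and Huh7 -0.89 (-1.08 to -0.70). The gene lies at chrX:101393273-101408012 on the minus strand, where RPL36A and the RPL36A-HNRNPH2 readthrough lie on the other strand. The library kit keeps strand, but whether the counting used it is not given in the sources used here. The same holds for the other members described that overlap a gene of the table on the other strand: CTSA (PLTP), NPC2 (ISCA2), SQSTM1 (MGAT4B), MAP1LC3B (FBXO31), WIPI1 (ARSG), BECN1 (PSME3) and ATG14 (FBXO34).

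The count of 2 was 0 without Huh7, 0 without Hep3B and 1 (GLA) without MHCC97H, and the calls over all genes went from 342 to 0, 1 and 109. Centring the libraries gave 3 members, with ATP6V1A as the third, and changed the split of all calls from 255 higher and 87 lower to 256 higher and 217 lower. With an unadjusted p under 0.05, 13 members were higher and 2 lower, 28.3% and 4.35% of the 46, against 15.2% and 12.2% of all genes. In all 3 cell lines, 19 members were higher and 4 lower than in untreated cells, against 28.4% and 25.7% of all genes.

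**Figure D1:**
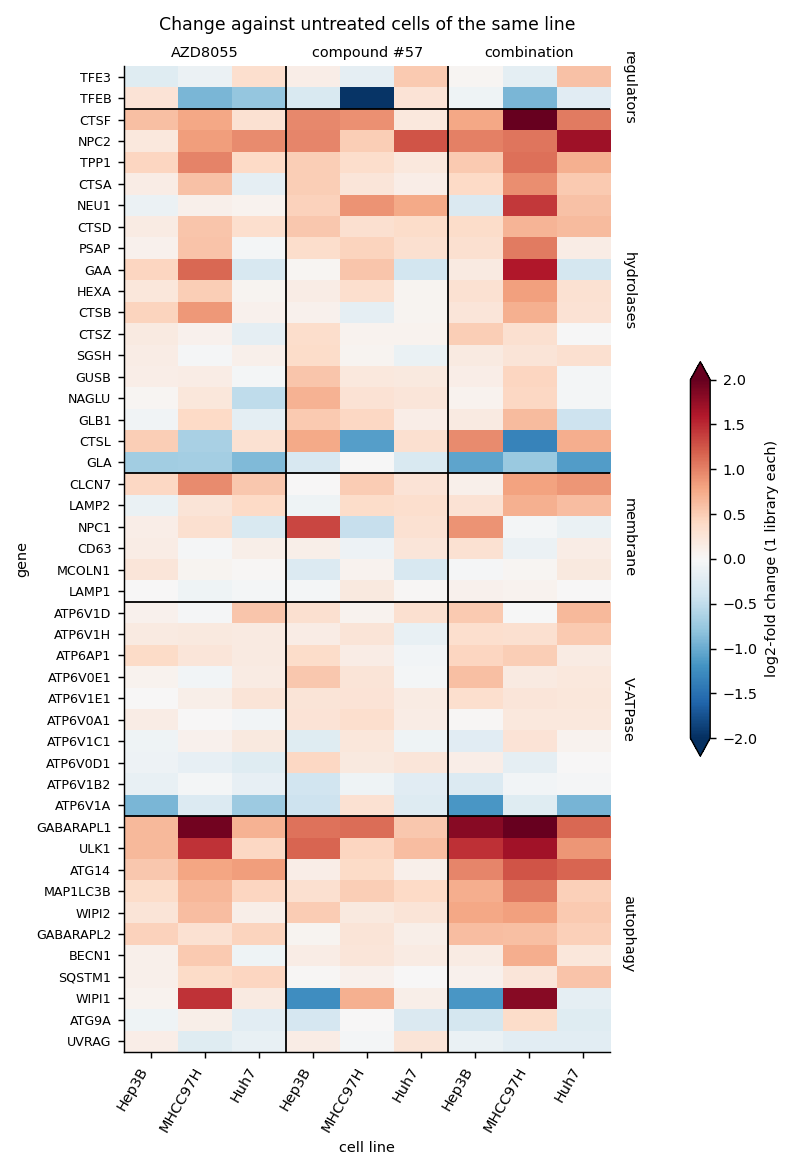
Log2-fold change of each of the 46 members (rows, by group) against untreated cells of the same line, for AZD8055, compound #57 and the combination in the 3 cell lines (columns). Each cell is the difference of 2 libraries, coloured red where higher and blue where lower. Under each treatment 8 of the 11 autophagy genes are higher in all 3 lines, GLA and ATP6V1A are blue under AZD8055 and the combination, and CTSL and WIPI1 have opposite colours in different cell lines.

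By group, the median change with AZD8055, averaged over the 3 lines, was 0.43 ± 0.18 (SD) for the autophagy genes, 0.24 ± 0.23 for the hydrolases, 0.12 ± 0.04 for the membrane proteins and 0.07 ± 0.09 for the V-ATPase subunits, against 0.02 ± 0.04 for all genes. The autophagy median was 0.26 for Hep3B, 0.62 for MHCC97H and 0.41 for Huh7, and 8 of the 11 genes were higher in all 3 cell lines. The hydrolase median was 0.17, 0.49 and 0.05 in the same order, with 6 of 17 higher in all 3. The membrane proteins gave 0.14, 0.15 and 0.08, and the V-ATPase subunits 0.04, -0.01 and 0.17. The groups were set side by side without a test of their difference.

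Besides ATG14, the autophagy genes named for their size of change with AZD8055 were GABARAPL1 and ULK1. GABARAPL1 encodes a ubiquitin-like protein that is conjugated to autophagosome membranes. It stood at 7.05, 7.70, 8.14 and 8.87 in Hep3B, at 6.96, 8.89, 8.08 and 9.87 in MHCC97H and at 7.65, 8.33, 8.18 and 8.80 in Huh7. Every treated library was above the untreated library of its line, and the combination was the highest in each. The fitted change of GABARAPL1 was 1.09 ± 0.30 with AZD8055 (adjusted p = 0.067), 0.91 ± 0.30 with compound #57 (adjusted p = 0.144) and 1.96 ± 0.30 with the combination (adjusted p = 0.00301). With AZD8055, MHCC97H gave 1.92 (1.68 to 2.19), Hep3B 0.65 (0.35 to 0.96) and Huh7 0.69 (0.47 to 0.91).

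ULK1 encodes the kinase that starts autophagosome formation and that mTORC1 restrains. It stood at 8.69, 9.35, 9.85 and 10.16 in Hep3B, at 8.87, 10.31, 9.30 and 10.55 in MHCC97H and at 8.99, 9.40, 9.61 and 9.87 in Huh7. The untreated library was the lowest of each line and the combination the highest. Fitted changes of ULK1 were 0.83 ± 0.25 with AZD8055 (adjusted p = 0.0802), 0.73 ± 0.25 with compound #57 (adjusted p = 0.156) and 1.34 ± 0.25 with the combination (adjusted p = 0.00528). In MHCC97H the AZD8055 value exceeded that of compound #57, and in Hep3B and Huh7 it was the reverse.

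**Figure D2:**
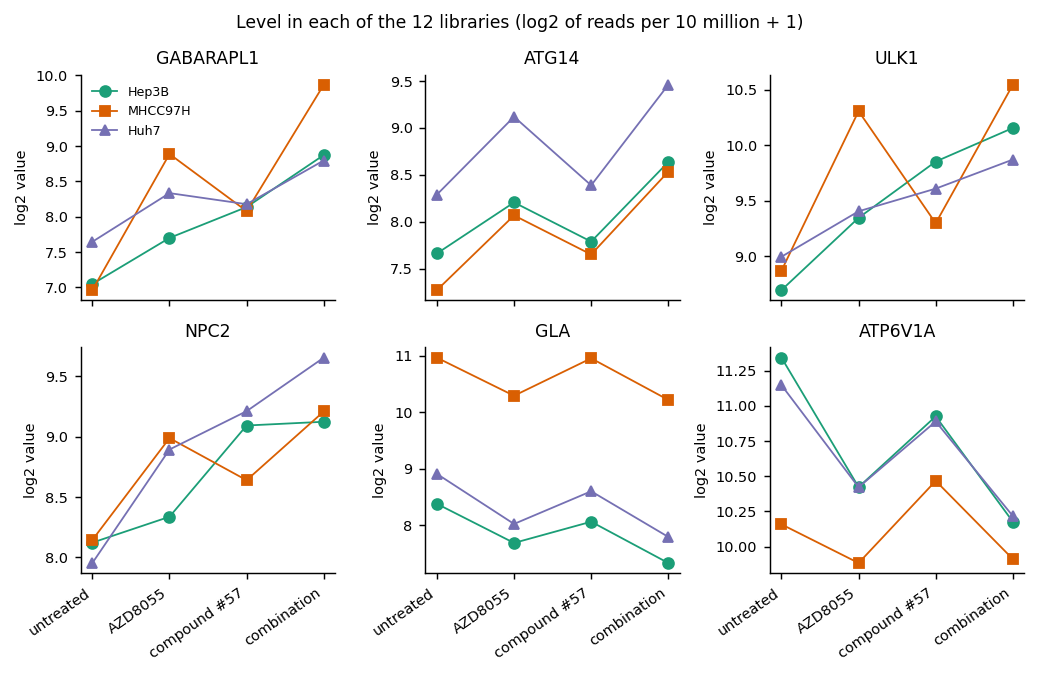
Log2 value of 6 members in each of the 12 libraries (vertical axis, a different range in each panel) by treatment (horizontal axis), with a symbol and line for each cell line. The combination is the highest point of every line for GABARAPL1, ATG14, ULK1 and NPC2. GLA is lowest with the combination in all 3 lines, and ATP6V1A is below its untreated level with AZD8055 and with the combination.

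MAP1LC3B and SQSTM1 are the genes most often read as markers of autophagy, the first as the source of LC3 and the second as the receptor p62, which autophagy also degrades. MAP1LC3B stood at 9.33, 9.70, 9.66 and 10.05 in Hep3B, at 9.15, 9.82, 9.65 and 10.21 in MHCC97H and at 10.06, 10.48, 10.45 and 10.53 in Huh7. It rose with the combination by a fitted 0.75 ± 0.12 (adjusted p = 0.00359) and had fitted values of 0.48 ± 0.12 with AZD8055 (adjusted p = 0.0586) and 0.40 ± 0.12 with compound #57 (adjusted p = 0.131). Reads of MAP1LC3B may be shared with its near-identical copy MAP1LC3B2, and those of GABARAPL1 with a processed copy.

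With 4129 to 32509 reads per library, SQSTM1 was the deepest measured of the 11 autophagy genes. It stood at 12.45, 12.55, 12.47 and 12.54 in Hep3B, at 14.10, 14.48, 14.19 and 14.35 in MHCC97H and at 11.57, 11.99, 11.57 and 12.14 in Huh7. In each line the 2 libraries with AZD8055 were above the 2 without it. The fitted change of SQSTM1 was 0.30 ± 0.13 both with AZD8055 (adjusted p = 0.174) and with the combination (adjusted p = 0.100), and 0.04 ± 0.13 with compound #57 (adjusted p = 0.89), so it did not pass the test.

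Compound #57 alone called no member. limma called 1 gene of 11548 in either direction (0.00866%), and voom on the whole reads called 90 genes and also no member. With an unadjusted p under 0.05, 11 members were higher and 0 lower, against 13.6% and 8.1% of all genes. With centred libraries these counts were 6 and 2, and those of all genes went from 1566 higher and 935 lower to 1158 and 1498. In all 3 cell lines, 25 members were higher and 2 lower than in untreated cells (54.3% and 4.35%), against 30.6% and 19.7% of all genes. The hydrolases had the highest median of the 4 larger groups in Hep3B (0.49) and MHCC97H (0.32), and the membrane proteins in Huh7 (0.25, against 0.20 for the hydrolases). Without MHCC97H, 2 members were called, NPC2 and ULK1, both higher, beside 467 higher and 311 lower of all 11548 genes.

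Of the hydrolase group, NPC2 was named for its change with compound #57. It encodes a lumenal protein that binds cholesterol and hands it to NPC1 for export. NPC2 stood at 8.12, 8.34, 9.09 and 9.12 in Hep3B, at 8.14, 8.99, 8.64 and 9.21 in MHCC97H and at 7.95, 8.89, 9.21 and 9.65 in Huh7. The untreated libraries, between 7.95 and 8.14, were below all 9 treated libraries. The fitted change of NPC2 was 0.91 ± 0.20 with compound #57 (adjusted p = 0.0912), 0.67 ± 0.20 with AZD8055 (adjusted p = 0.0818) and 1.26 ± 0.20 with the combination (adjusted p = 0.00336). Without MHCC97H the value with compound #57 was 1.11 ± 0.21 (adjusted p = 0.0315).

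Its partner NPC1, the membrane protein of cholesterol export, differed in direction between cell lines. NPC1 stood at 9.66, 9.80, 11.00 and 10.56 in Hep3B, at 10.89, 11.22, 10.44 and 10.86 in MHCC97H and at 10.24, 9.93, 10.54 and 10.11 in Huh7. With compound #57, NPC1 was 1.34 above untreated cells in Hep3B (1.23 to 1.45) and 0.46 below in MHCC97H (-0.55 to -0.37). NPC1 was chosen after its values were seen.

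ATP6V0D1, a V-ATPase subunit of the membrane sector, was above untreated cells with compound #57 in every line. It stood at 8.97, 8.87, 9.39 and 9.09 in Hep3B, at 9.41, 9.24, 9.61 and 9.23 in MHCC97H and at 9.19, 8.95, 9.43 and 9.21 in Huh7. Compound #57 alone was the highest library of each line, and AZD8055 alone was below untreated cells in each. The fitted change of ATP6V0D1 was 0.29 ± 0.11 (adjusted p = 0.171), and that of CLCN7, the membrane protein named for this comparison, 0.26 ± 0.16 (adjusted p = 0.358).

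The combination called 19 members against untreated cells, 17 higher and 2 lower. These were 37% and 4.35% of the 46, against 20.9% and 15.1% of all genes. Centring the libraries gave 14 higher and 2 lower, and changed the split of all calls from 2410 higher and 1744 lower to 1993 higher and 2229 lower. By group, 7 of 17 hydrolases, 2 of 6 membrane proteins, 2 of 10 V-ATPase subunits and 6 of 11 autophagy genes were called higher, and 1 hydrolase and 1 V-ATPase subunit lower. The count was 0 without Huh7, 12 without Hep3B and 14 without MHCC97H, while the calls over all genes went from 4154 to 11, 1797 and 3778. Without a test, 25 members were higher in all 3 cell lines and 5 lower, against 33.4% and 25.6% of all genes.

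The 7 hydrolases and helpers that rose with the combination were CTSF, NPC2, TPP1, CTSA, CTSD, PSAP and HEXA. TPP1, a protease that trims tripeptides from protein ends, stood at 10.77, 11.21, 11.27 and 11.30 in Hep3B, at 10.48, 11.47, 10.82 and 11.57 in MHCC97H and at 10.53, 10.93, 10.74 and 11.24 in Huh7. TPP1 rose by a fitted 0.78 ± 0.16 (adjusted p = 0.00669), and its value was 0.61 ± 0.16 with AZD8055 (adjusted p = 0.0599). The untreated TPP1 libraries, up to 10.77, were all below the combination libraries, from 11.24.

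CTSA, the protective protein of the galactosidase and neuraminidase complex, stood at 11.13, 11.27, 11.62 and 11.52 in Hep3B, at 11.71, 12.30, 11.96 and 12.64 in MHCC97H and at 10.35, 10.18, 10.49 and 10.88 in Huh7. It rose with the combination by a fitted 0.62 ± 0.17 (adjusted p = 0.021). NEU1, the neuraminidase of that complex, had a fitted 0.57 ± 0.26 (adjusted p = 0.112), with 1.42 in MHCC97H and -0.29 in Hep3B.

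CTSD, the main aspartic protease of the lysosome, stood at 11.52, 11.69, 12.06 and 11.88 in Hep3B, at 12.04, 12.60, 12.36 and 12.72 in MHCC97H and at 10.13, 10.47, 10.50 and 10.77 in Huh7. Its fitted change was 0.56 ± 0.13 (adjusted p = 0.0116). In Hep3B, compound #57 alone gave the highest level of CTSD, as it did of CTSA, and in the other lines the combination did.

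PSAP encodes the precursor of the saposins, the activators of sphingolipid hydrolases. Per kilobase of annotated exon, it was the most abundant member in untreated cells of every line, with 2372 reads per 10000000 in Hep3B, 3123 in MHCC97H and 3191 in Huh7. On the log2 scale without length, PSAP stood at 12.85, 12.93, 13.20 and 13.17 in Hep3B, at 13.25, 13.81, 13.70 and 14.29 in MHCC97H and at 13.28, 13.25, 13.61 and 13.43 in Huh7. It rose with the combination by 0.50 ± 0.18, just inside the threshold (adjusted p = 0.0496). The change within the lines ran from 0.15 in Huh7 (0.12 to 0.19) to 1.04 in MHCC97H (1.01 to 1.08). 

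HEXA encodes the alpha chain of beta-hexosaminidase. It stood at 9.17, 9.40, 9.32 and 9.48 in Hep3B, at 10.34, 10.83, 10.68 and 11.16 in MHCC97H and at 9.42, 9.47, 9.47 and 9.72 in Huh7. The combination was the highest library of each line and the untreated the lowest. HEXA rose by 0.48 ± 0.12 (adjusted p = 0.0163), with 0.30 in Hep3B and in Huh7 and 0.82 in MHCC97H. Another annotated protein-coding gene covers 35058 bases of HEXA on the same strand, and one covers 11203 bases of CTSD, so part of their reads could have been left out or assigned elsewhere.

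CTSF, a cysteine protease, had the largest fitted change of the group (1.45 ± 0.35, adjusted p = 0.0132), but MHCC97H hardly expressed it. Its reads there were 0, 1, 1 and 6, so the fitted value of CTSF depends on the offset added before the logarithm and is not a fold change that can be read. In Hep3B its log2 values were 6.02, 6.62, 6.98 and 6.79 from 68 to 196 reads, and in Huh7 8.51, 8.81, 8.72 and 9.55. Without MHCC97H the fitted change was 0.90 and CTSF was still called. With 10 added in place of 1 the fitted value was 0.76. The combination was 0.77 above untreated cells in Hep3B (0.35 to 1.22) and 1.04 above in Huh7 (0.89 to 1.19).

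GLA was the 1 hydrolase that fell with the combination, by 0.97 ± 0.12 on the log2 scale (adjusted p = 0.00182). Hep3B gave -1.05, MHCC97H -0.75 and Huh7 -1.12. The hydrolases that were not called included CTSB, a cysteine protease with a fitted 0.41 ± 0.18 (adjusted p = 0.096), and GAA, the acid alpha-glucosidase of glycogen, with 0.48 ± 0.29 (adjusted p = 0.222). GAA was 1.60 above untreated cells in MHCC97H (1.45 to 1.77), 0.18 above in Hep3B (0.07 to 0.30) and 0.36 below in Huh7 (-0.48 to -0.24). Median changes of the 17 were 0.30 for Hep3B, 0.71 for MHCC97H and 0.30 for Huh7, against 0.06, 0.09 and 0.04 for all genes.

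Among the membrane proteins, CLCN7 and LAMP2 rose with the combination and LAMP1 was not called. CLCN7 encodes the chloride and proton exchanger of the lysosome. It stood at 10.21, 10.63, 10.22 and 10.32 in Hep3B, at 10.34, 11.28, 10.85 and 11.15 in MHCC97H and at 9.13, 9.66, 9.40 and 10.01 in Huh7. Fitted changes of CLCN7 were 0.60 ± 0.16 with the combination (adjusted p = 0.0176) and 0.63 ± 0.16 with AZD8055 (adjusted p = 0.0561), and in Hep3B and MHCC97H the AZD8055 library was the highest. LAMP2, a heavily glycosylated membrane protein with a role in chaperone-mediated autophagy, stood at 11.01, 10.87, 10.93 and 11.29 in Hep3B, at 11.69, 11.95, 12.06 and 12.40 in MHCC97H and at 10.18, 10.59, 10.51 and 10.79 in Huh7. LAMP2 rose by 0.53 ± 0.12 (adjusted p = 0.011).

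LAMP1, its relative and the other major protein of the lysosomal membrane, had the narrowest range between treatment means of the 46 members (0.10). It stood at 12.55, 12.56, 12.51 and 12.63 in Hep3B, at 10.07, 9.97, 10.26 and 10.14 in MHCC97H and at 11.12, 11.09, 11.14 and 11.13 in Huh7. With the combination, the fitted value of LAMP1 was 0.05 ± 0.10 (adjusted p = 0.698). 

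MCOLN1, the calcium channel mucolipin of the lysosome, had 131 to 352 reads per library. It stood at 7.92, 8.17, 7.64 and 7.90 in Hep3B, at 6.78, 6.83, 6.86 and 6.82 in MHCC97H and at 7.38, 7.41, 7.06 and 7.57 in Huh7. The lines differed more than the treatments, and the fitted change of MCOLN1 was 0.07 ± 0.15 with the combination (adjusted p = 0.758) and 0.11 ± 0.15 with AZD8055 (adjusted p = 0.669). Promoters of LAMP1 and MCOLN1 are among the 5 that hold TCACGTGA. Of these 5, 1 member (CTSA) was called higher with the combination, against 5 of the 11 with CACGTG and 8 of the 23 matched members without it.

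In the V-ATPase, subunits moved in different directions. With the combination, 20% of the 10 subunits were called higher and 10% lower. Of all genes these were 20.9% and 15.1%, so the subunits were not called more often than the background. ATP6V1A, the catalytic subunit that hydrolyses ATP, stood at 11.34, 10.42, 10.93 and 10.18 in Hep3B, at 10.16, 9.88, 10.47 and 9.91 in MHCC97H and at 11.15, 10.42, 10.89 and 10.22 in Huh7. In each line both libraries with AZD8055 were below both without it. ATP6V1A fell by 0.78 ± 0.16 with the combination (adjusted p = 0.00682), and its value with AZD8055 was -0.64 ± 0.16 (adjusted p = 0.0558). With AZD8055, Hep3B gave -0.92 (-1.01 to -0.83), Huh7 -0.73 (-0.81 to -0.64) and MHCC97H -0.27 (-0.38 to -0.17).

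ATP6V1H, the regulatory subunit of the cytosolic sector, and ATP6AP1, an accessory subunit needed for assembly, rose with the combination. ATP6V1H stood at 8.02, 8.20, 8.16 and 8.35 in Hep3B, at 9.42, 9.61, 9.68 and 9.73 in MHCC97H and at 7.45, 7.63, 7.31 and 7.97 in Huh7. The combination was its highest library in each line, and ATP6V1H rose by 0.39 ± 0.13 (adjusted p = 0.0442). ATP6AP1 stood at 9.83, 10.22, 10.20 and 10.26 in Hep3B, at 10.72, 10.96, 10.88 and 11.22 in MHCC97H and at 10.004, 10.18, 9.95 and 10.16 in Huh7. It rose by 0.36 ± 0.11 (adjusted p = 0.0311), and in Huh7 AZD8055 alone was as high as the combination. Neither the partner of the catalytic subunit, ATP6V1B2 (fitted -0.12 ± 0.11, adjusted p = 0.405), nor ATP6V0D1 of the membrane sector (-0.02 ± 0.11, adjusted p = 0.918) passed the test. Medians of the 10 subunits were 0.23 for Hep3B, 0.20 for MHCC97H and 0.18 for Huh7.

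**Figure D3:**
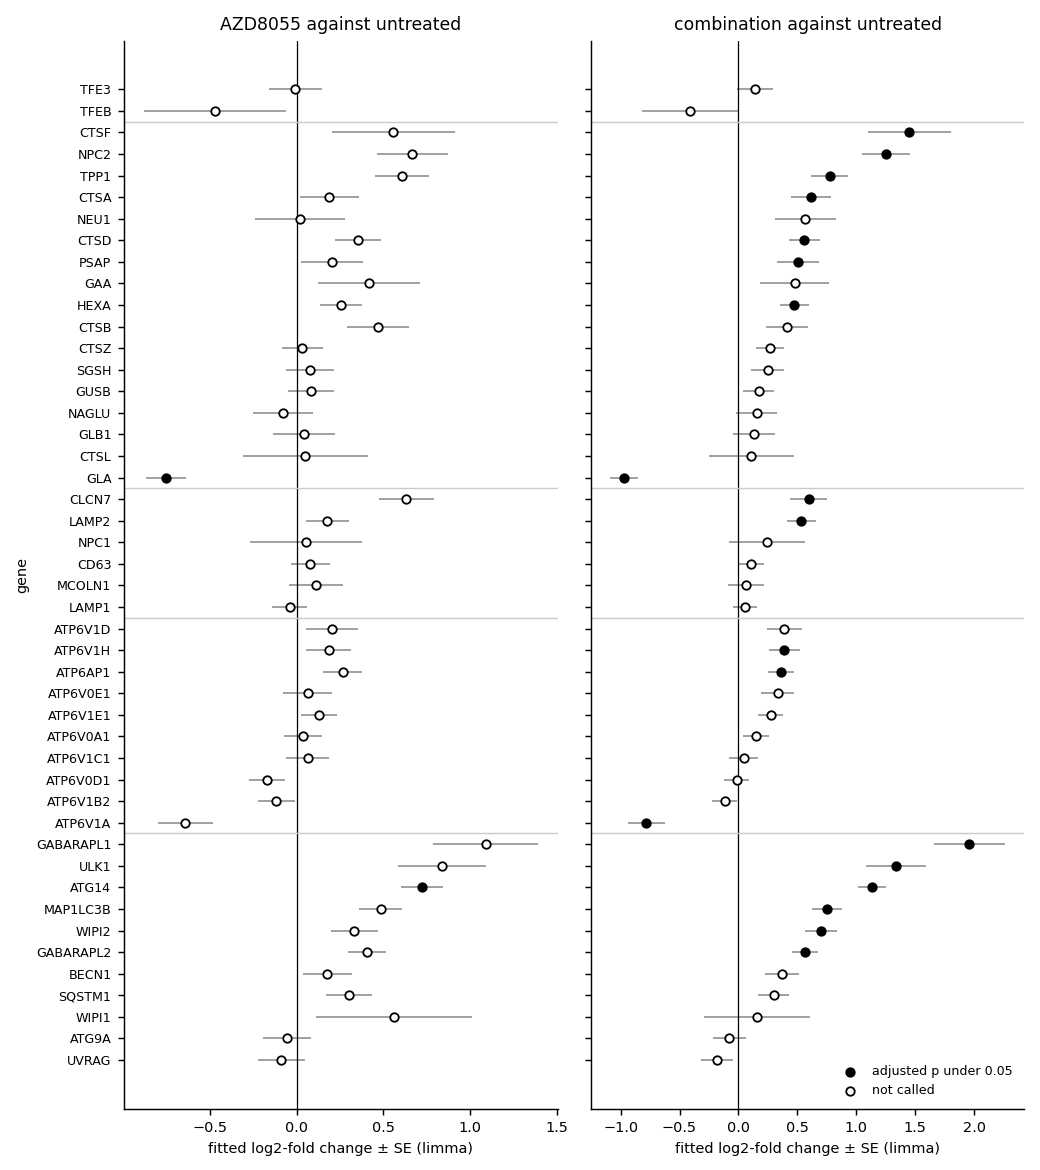
Fitted log2-fold change (horizontal axis) with its standard error (bars) of the 46 members (rows, by group) for AZD8055 and for the combination, each against untreated cells, from limma over the 12 libraries. Filled points have an adjusted p under 0.05. 2 points are filled for AZD8055 (ATG14 and GLA) and 19 for the combination, of which GLA and ATP6V1A lie below 0.

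The 6 autophagy genes called with the combination were GABARAPL1, ULK1, ATG14, MAP1LC3B, WIPI2 and GABARAPL2. ATG14 rose by a fitted 1.13 ± 0.12 (adjusted p = 0.00169), and its 3 lines gave 0.97 (Hep3B), 1.26 (MHCC97H) and 1.17 (Huh7). WIPI2, which reads the lipid made by the ATG14 complex and recruits the conjugation machinery, stood at 10.19, 10.46, 10.70 and 10.97 in Hep3B, at 9.10, 9.72, 9.30 and 9.91 in MHCC97H and at 9.26, 9.38, 9.52 and 9.78 in Huh7. WIPI2 rose by 0.70 ± 0.14 (adjusted p = 0.00585), and the combination was the highest library of every line. GABARAPL2, another ubiquitin-like protein of the autophagosome, stood at 8.43, 8.90, 8.49 and 9.05 in Hep3B, at 8.17, 8.47, 8.42 and 8.76 in MHCC97H and at 9.11, 9.56, 9.23 and 9.59 in Huh7. It rose by 0.56 ± 0.11 (adjusted p = 0.00616), and in each line the libraries with AZD8055 were above those without it.

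The autophagy genes BECN1, ATG9A and UVRAG were not called. The fitted changes with the combination were 0.37 ± 0.14 for BECN1 (adjusted p = 0.0666), -0.08 ± 0.14 for ATG9A (adjusted p = 0.683) and -0.18 ± 0.14 for UVRAG (adjusted p = 0.311). WIPI1, the relative of WIPI2, had a fitted 0.16 ± 0.45 (adjusted p = 0.799), and it went opposite ways in MHCC97H and Hep3B. The median of the 11 autophagy genes was 0.62 for Hep3B, 0.82 for MHCC97H and 0.48 for Huh7. The 38 other autophagy genes listed for the pathway had lower medians of 0.07, 0.36 and 0.25 in that order, and averaged over the lines 0.23 ± 0.15 (SD) against 0.64 ± 0.17 for the 11. With AZD8055 the averages were 0.11 ± 0.09 and 0.43 ± 0.18. Both lists were chosen with earlier results of these data known, so the difference between them is only described.

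Adding compound #57 to AZD8055 called no member and no gene at all (0% of 11548 by limma, and 0 by voom on the whole reads). With an unadjusted p under 0.05, 7 members were higher and 0 lower, against 9.3% and 5.19% of all genes. With centred libraries 7 were higher and 1 lower, and all genes went from 1074 higher and 599 lower to 826 and 876. The combination was above AZD8055 alone in all 3 cell lines for 22 members and below for 1, against 23.7% and 16.3% of all genes. The members named for this comparison were GABARAPL1 (0.87 ± 0.30, adjusted p = 0.265), CTSF, with few reads in MHCC97H (0.90 ± 0.35, adjusted p = 0.296), LAMP2 (0.36 ± 0.12, adjusted p = 0.266) and ATP6V0E1 (0.27 ± 0.14, adjusted p = 0.411). ATP6V0E1, a small subunit of the V-ATPase membrane sector, stood at 9.11, 9.19, 9.65 and 9.72 in Hep3B, at 10.23, 10.18, 10.50 and 10.41 in MHCC97H and at 9.41, 9.58, 9.38 and 9.62 in Huh7.

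Adding AZD8055 to compound #57 called 3 members, ATG14 higher and GLA and ATP6V1A lower. Of all genes, 2.62% were called higher and 1.57% lower. Fitted values were 0.93 ± 0.12 for ATG14 (adjusted p = 0.0137), -0.76 ± 0.12 for GLA (adjusted p = 0.0191) and -0.66 ± 0.16 for ATP6V1A (adjusted p = 0.0497). Without Huh7 or without Hep3B no member was called, and without MHCC97H 3 were, with 0, 1 and 331 calls over all genes against 483. With an unadjusted p under 0.05, 11 members were higher and 4 lower, against 13.4% and 12% of all genes, and 19 were higher and 4 lower in all 3 cell lines, against 26.3% and 21.8%. This comparison shares the combination libraries with the others, and AZD8055 alone shares its untreated libraries with compound #57 alone and with the combination, so their values are not independent.

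**Figure D4:**
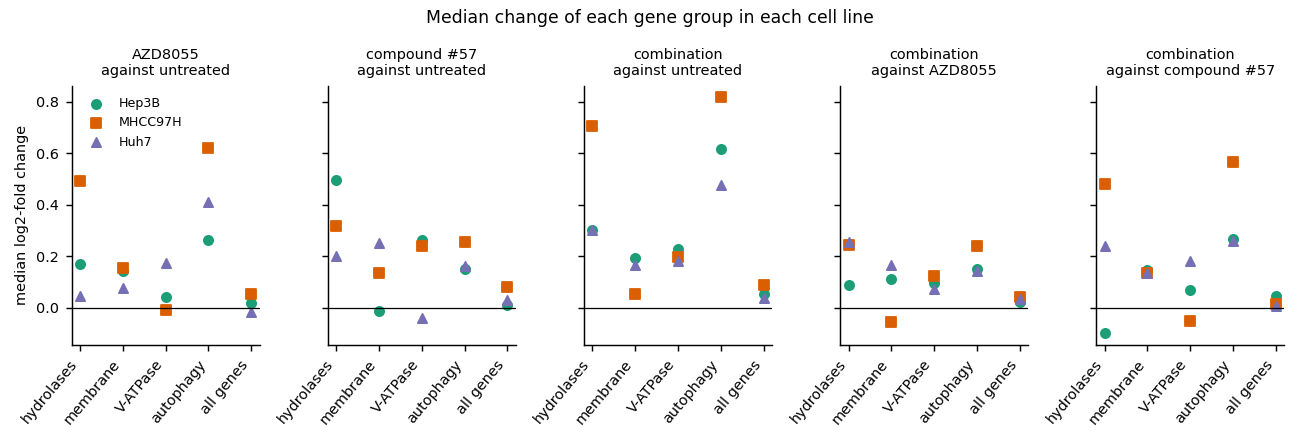
Median log2-fold change of the hydrolases, membrane proteins, V-ATPase subunits and autophagy genes and of all 11548 genes (horizontal axis) in each cell line (symbols), for 5 comparisons (panels). The 11 autophagy genes lie above all genes in every panel and cell line, with the highest point at 0.82 in MHCC97H with the combination. The hydrolases reach 0.71 there and lie at -0.10 in Hep3B when AZD8055 is added to compound #57.

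The combination was also set against the sum of the changes with each drug alone. The interaction term called no member and no gene (0% by limma and 0 by voom on the whole reads), and at an unadjusted p under 0.05 it held 0 members and 178 genes. For GABARAPL1 the sum and the combination were 1.74 and 1.82 (Hep3B), 3.04 and 2.90 (MHCC97H), and 1.22 and 1.15 (Huh7). For ATG14 the combination was above the sum in every line, by 0.30, 0.09 and 0.24 in Hep3B, MHCC97H and Huh7, with a fitted interaction of 0.21 ± 0.17. For NPC2 and ULK1 it was below the sum in every line, with fitted interactions of -0.32 ± 0.29 and -0.23 ± 0.36.

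In Hep3B, the hydrolases had the lowest median difference from the sum of the member groups. The combination was below the sum for all 17 of them, with a median of -0.30 against 0.02 for all genes, while 9 of 17 were above the sum in MHCC97H (median 0.02) and 11 of 17 in Huh7 (0.09). NEU1 was 0.63 below the sum in Hep3B and CTSD 0.35 below. In this line the hydrolases took 0.353% of the reads with compound #57 and 0.315% with the combination. The same Hep3B libraries, 1 per treatment and among them that with compound #57, enter this value for every gene. The share of all genes below the sum was not computed, and the difference between the lines was not tested. Hydrolases outside the members were not compared with the sum, so the pattern cannot be called particular to these 17.

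The cell lines differed more than the treatments for most members. For 37 of the 46, the range between the means of the 3 lines exceeded the range between the means of the 4 treatments, with medians of 1.06 and 0.47 on the log2 scale. That count was not made over all 11548 genes, so it does not set the members apart. Of all genes, 6366 to 8110 were called between pairs of lines. Against untreated cells, 342 were called with AZD8055, 1 with compound #57 and 4154 with the combination. Between Hep3B and Huh7, 19 members were called higher in Hep3B and 9 lower, against 30.7% and 24.5% of all genes. Between MHCC97H and Hep3B, 20 were higher in MHCC97H and 14 lower, against 29.2% and 38.6%, and between MHCC97H and Huh7 18 and 11, against 33.8% and 36.4%. These contrasts treat the 4 libraries of a line as its replicates.

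TFEB had the widest range of the factors, with means of 8.47 ± 0.24 (Hep3B), 4.43 ± 0.80 (MHCC97H) and 3.93 ± 0.44 (Huh7; SD over 4 libraries). Hep3B was 4.54 ± 0.35 above Huh7 (adjusted p = 6.12e-06), while MHCC97H against Huh7 was not called (0.50 ± 0.35, adjusted p = 0.23). TFE3 was lowest in Hep3B, where TFEB was highest, with 8.66 ± 0.16 in Hep3B, 10.20 ± 0.09 in MHCC97H and 10.13 ± 0.26 in Huh7, and Hep3B was 1.47 ± 0.13 below Huh7 (adjusted p = 1.59e-05).

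LAMP1 had the widest range of the membrane proteins, with 12.56 ± 0.05 in Hep3B, 11.12 ± 0.02 in Huh7 and 10.11 ± 0.12 in MHCC97H, and each line differed from the next by the test (1.44 ± 0.09, adjusted p = 1.21e-06, and -1.01 ± 0.09 for MHCC97H against Huh7, adjusted p = 3.63e-06). SQSTM1 had the widest range of the autophagy genes, with 14.28 ± 0.17 in MHCC97H, 12.50 ± 0.05 in Hep3B and 11.82 ± 0.29 in Huh7. ATP6V1H did so among the V-ATPase subunits, with 9.61 ± 0.14 (MHCC97H), 8.18 ± 0.13 (Hep3B) and 7.59 ± 0.29 (Huh7). The widest range of the 46 was that of CTSF, which had 0 to 6 reads in MHCC97H and 537 to 867 in Huh7.

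The other genes of the pathway, 101 in the table of 115 listed, were tested in the same fit. With AZD8055, 2 were called, both higher, which is 1.98% of the 101 against 2.21% of all genes. These were TPCN1, a cation channel of endosomes and lysosomes (0.79 ± 0.18, adjusted p = 0.0477), and EPG5, a tether in the fusion of autophagosomes with lysosomes (0.65 ± 0.15, adjusted p = 0.0467). With the combination against untreated cells, 38 were higher and 6 lower, 37.6% and 5.94% of the 101, against 20.9% and 15.1% of all genes. By list these were 10 and 1 of 26 further hydrolases, 7 and 1 of 17 membrane proteins and 1 and 1 of 7 V-ATPase subunits. They were also 12 and 3 of 38 autophagy genes, and 8 and 0 of 13 genes in a mixed list around TFE3 and TFEB. The 16 names of that mixed list were TFEC, FLCN, FNIP1, FNIP2, RRAGA to RRAGD, LAMTOR1 to LAMTOR5, SLC38A9, GPNMB and PPARGC1A.

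Of the genes called with the combination, OPTN, a receptor that links ubiquitin to LC3, had 246, 591, 1526 and 1856 reads in Hep3B, 470, 830, 491 and 1173 in MHCC97H and 425, 782, 813 and 1166 in Huh7. OPTN rose by 2.0 ± 0.30 (adjusted p = 0.00293). The proteases CTSH (1.47 ± 0.35, adjusted p = 0.0115) and CTSO (1.5 ± 0.36, adjusted p = 0.0123) rose as well, while CTSC, the protease that activates granule serine proteases, fell by 1.55 ± 0.27 (adjusted p = 0.00423). In CTSC, Hep3B gave -2.11, MHCC97H -0.79 and Huh7 -1.73.

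ULK2, the relative of ULK1, rose by 1.72 ± 0.42 (adjusted p = 0.013) and had 9 to 145 reads per library. CTSS (2.07 ± 0.52, adjusted p = 0.0147), MCOLN3 (1.49 ± 0.40, adjusted p = 0.0192) and RRAGB (1.37 ± 0.48, adjusted p = 0.0478) rose by the test too. Like ULK2, these 3 had under 10 reads in at least 1 library, and MCOLN3 and RRAGB had 0 in at least 1, so their fitted sizes depend on the offset. On adding AZD8055 to compound #57, 3 pathway genes were called, all higher, which is 2.97% of the 101 against 2.62% of all genes. They were NBR1, a cargo receptor (0.97 ± 0.23, adjusted p = 0.0454), RB1CC1, the scaffold of the ULK1 complex (0.68 ± 0.16, adjusted p = 0.0452), and LAPTM4A, a lysosomal membrane protein (0.53 ± 0.12, adjusted p = 0.0426).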

How the data were processed

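RNA sequencing values of 12 libraries were used, 1 for each of 3 cell lines and 4 treatments. Per the labels and the study's methods, the authors prepared polyA+ stranded TruSeq libraries and aligned the reads to hg38. The authors deposited a table of log2 values per gene. The aligner, the counting and the normalization are not given in the sources used here. Each value was read as log2(reads per 10000000 + 1), since all values gave whole reads within 0.01 read. A gene with 0 reads is written as 0.001. No gene of the 11548 had a mean under 4.65, and 305 had 0 reads in at least 1 library.

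The members and lists were chosen with earlier results of these data known. limma 3.58.1 in R 4.3.3 was fitted to all 12 libraries, modelling treatment and cell line (lmFit and eBayes, trend on, 6 residual degrees of freedom). A gene was called when its p-value, adjusted over all genes by Benjamini and Hochberg, was under 0.05. P-values measure the spread of the treatment effect between cell lines, and no p-value was computed within a line. Libraries of a cell line form the pairs, which the cell line itself gives. Within a line, the difference of 2 log2 values is given with the 95% Clopper-Pearson interval of the reads, which covers counting error only. Group medians are described without a test.

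Named were TFEB, TFE3, SQSTM1 and MAP1LC3B, every member called in a treatment comparison, those of each group that changed most in the same direction in all 3 lines, and those with the widest range between lines. NPC1, NEU1, CTSB, GAA, BECN1, ATG9A, UVRAG, WIPI1, CTSL and ATP6V1B2 were named after their values were seen. Alternatives were 10 added in place of 1, a filter that kept the upper 75% of genes by mean, libraries centred on their medians, voom on the whole reads, no cell line term, only the libraries compared, each cell line left out, and the mean in place of the median. Coordinates are from GENCODE 44 on hg38, and promoters from RefSeq (GRCh38.p14). Other steps used Python 3.11.15 (matplotlib 3.10.9, scipy 1.17.1, pandas 2.3.3, numpy 2.4.6).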

Additional observations from a re-analysis of the deposited data

Results flagged for a closer look

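In 3 members, a cell line changed by at least 0.5 on the log2 scale in one direction and another line by at least that much in the other, with both counting intervals clear of 0. These differences were not tested, since each line has 1 library per treatment, and the lines also differ in exposure time. The rule was applied to the members only, so how often other genes meet it is not known here. CTSL, a cysteine protease, had the values 7.39, 7.88, 8.14 and 8.33 in Hep3B and 12.71, 12.07, 11.61 and 11.38 in MHCC97H. With compound #57, CTSL was 0.75 above untreated cells in Hep3B and 1.11 below in MHCC97H (-1.11), a difference of 1.86. With the combination, CTSL was 0.94 above in Hep3B, 0.72 above in Huh7 and -1.33 in MHCC97H, differences of 2.27 and 2.05.

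WIPI1, a lipid-binding protein of the early autophagosome, had 323, 387, 200 and 166 reads in Hep3B and 52, 157, 75 and 178 in MHCC97H. With compound #57, WIPI1 was 0.71 above untreated cells in MHCC97H and at -1.24 in Hep3B, a difference of 1.94. With the combination it was 1.82 above in MHCC97H and at -1.17 in Hep3B, a difference of 2.99. When AZD8055 was added to compound #57, NEU1 was 0.52 higher in MHCC97H and at -0.75 in Hep3B, a difference of 1.27.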

How the results depend on the processing

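No replicate block (no cell line term) gave 0 members for AZD8055, 0 for the combination and 0 for AZD8055 added to compound #57, each against its control. With only the libraries compared the counts were 0 for AZD8055 and 10 for the combination against untreated cells, beside 2 and 1889 of all genes. Leaving out a cell line gave 0 to 1 members for AZD8055, 0 to 2 for compound #57, 0 to 14 for the combination against untreated cells and 0 to 3 for AZD8055 added to compound #57. The comparisons between lines gave 25 to 35 members when a treatment was left out. Of the 24 calls of members, 24 held with 10 added in place of 1, 23 with voom, 23 of those tested among the 75% of genes, and 21 with centred libraries. Over all genes, voom called 90 with compound #57 and leaving out MHCC97H 778, against 1.

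Group medians with another value were, with the mean over members, 0.168 (AZD8055), 0.267 (combination against untreated) and 0.128 (AZD8055 added to compound #57) for the membrane proteins and 0.102 for the V-ATPase with the combination. Centring gave 0.123 for autophagy with compound #57, and for the V-ATPase 0.132 with the combination and 0.0583 when compound #57 was added to AZD8055. Leaving CTSF out in MHCC97H, chosen after the data were seen, gave hydrolase medians of 0.22 with AZD8055 and 0.43 with the combination. TFE3 with AZD8055 was at 0.00718 by voom and ran from -0.18 (without Huh7) to 0.11 (without Hep3B), with 0.047 without MHCC97H, and with the combination from -0.076 (without Huh7) to 0.31 (without MHCC97H). The causes were not tested. Depth limits TFEB, CTSF and WIPI1, the 3 members with under 100 reads in at least 1 library.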
